A study of Rattus norvegicus with 2 samples.

Results

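The genes described here encode parts of motile and primary cilia. They are the genes whose array name belongs to the Dnah, Dnai, Tekt, Rsph, Spag, Ift or Bbs families, with Dynlrb2 and Tmem212. Membership follows the name and not the signal, though the set was chosen with earlier results of these data known. The arrays hold 53 such genes on 67 probes, of 26269 gene names on 30367 probes. Total RNA came from the paraventricular nucleus of the hypothalamus of male Sprague Dawley rats aged 12 weeks. The dexamethasone group, 1 array, held RNA of offspring of mothers that received 200 µg/kg of the glucocorticoid dexamethasone in the third trimester. The control group, also 1 array, represented offspring whose mothers received the vehicle. The series title places the study in prenatally programmed hypertension and the hypothalamic angiotensin receptor. The sources used here do not give how many animals contributed to each array.

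A motile cilium is built on an axoneme, a bundle of microtubules whose outer and inner dynein arms slide neighbouring doublets against each other. Tektins run along the doublets, and radial spokes connect them to the central pair. In the hypothalamus such cilia stand on the ependymal cells that line the third ventricle, which lies beside the paraventricular nucleus, and they move cerebrospinal fluid. Most other cells, neurons included, carry a single immotile primary cilium, which receives signals such as Hedgehog. Both kinds are assembled by intraflagellar transport, and the BBSome moves membrane proteins in and out of them.

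No cilium gene measured on both arrays was at least 2-fold higher after dexamethasone, and 2 were at least 2-fold lower, the defensin-like Spag11b and Spag11c. With normexp, another background correction, neither passed, and a Dnah10 probe just short of 2-fold passed it under quantile normalization. Over all measured probes, 2.67% were higher by 2-fold or more and 3.18% were lower by that much. The families lay on different sides of 0. Axonemal dyneins, Dynlrb2, tektins, radial spoke genes and Tmem212 together were above 0 for 19 of 25 probes, with a median log2 difference (dexamethasone minus control) of 0.29. That median was 0.17 with normexp and 0.15, with 17 of 25 above 0, with no background correction. Intraflagellar transport and BBSome genes together were above 0 for 7 of 24 probes, with a median of -0.15. For comparison, 52.1% of all measured probes were above 0, with a median of 0.02. These groups of families were formed after the values were seen. With 1 array per group no difference can be set against a spread between animals, and no p-value is given. Fewer cells of a type and less RNA per cell cannot be told apart in bulk tissue, nor can treatment and the individual array.

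Of the 67 probes, 60 probes for 51 genes were well above background on both arrays. Tekt5 passed on the dexamethasone array only and Spag6l on the control array only. The other 5 probes, for Dnah10, Dnah17, Dnah8 and Dnahc3l, passed on neither array, and each of those genes had another probe that did. Signals quoted are processed intensities before scaling. Differences are taken after each array was scaled to its 75th percentile, which was 1480 for dexamethasone and 1404 for control, so a probe with equal signals on both arrays is slightly below 0. At the milder limit of 1.5-fold, 6 of the 60 cilium probes were higher and 6 were lower, beside 6.23% and 8.55% of all measured probes.

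**Figure D1:**
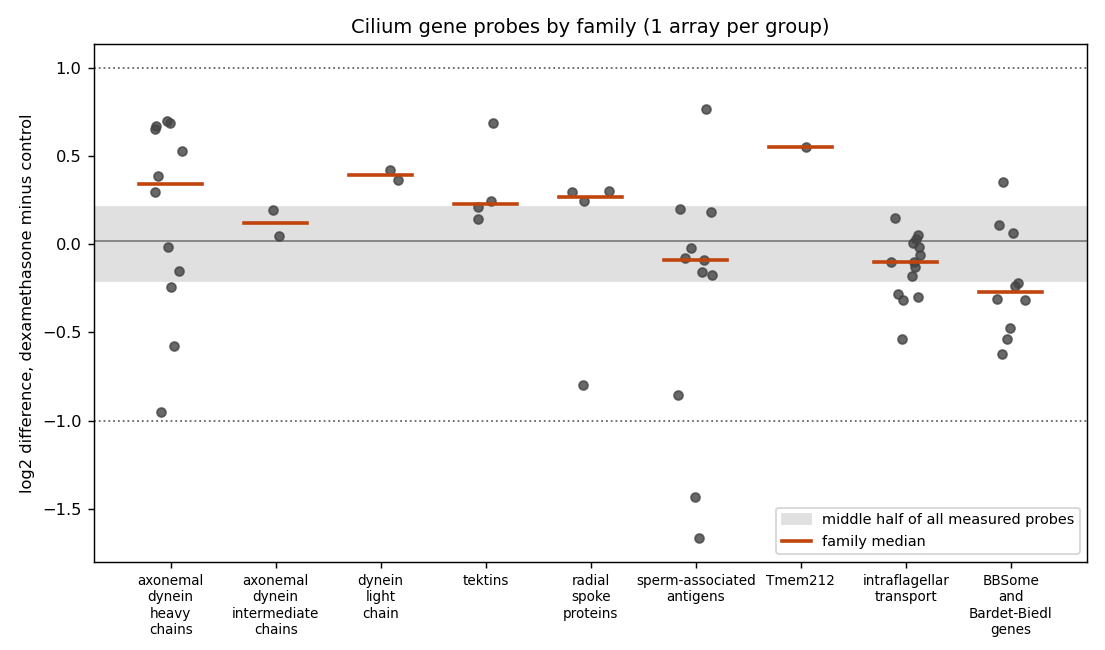
Log2 difference (dexamethasone minus control, vertical axis) of each of the 60 measured cilium probes, by family. Points are probes, red lines are family medians, the grey band spans the middle 50% of all measured probes and dotted lines mark 2-fold. The Spag family holds both probes past 2-fold, and the BBSome and Bardet-Biedl family has the lowest median, at -0.27.

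The axonemal dynein heavy chains are the motors of the dynein arms. They were measured by 12 probes for 9 genes, of which 7 were above 0 and 5 below, with a median of 0.34. Most of these probes were dim, with a median signal of 32.7 after dexamethasone and 24.9 in control. Dnahc3l, named after a dynein heavy chain, had signals of 24.96 in dexamethasone and 14.6 in control on 1 probe, a difference of 0.70. On its other measured probe the signals were 15.5 in dexamethasone and 9.24 in control, a difference of 0.67. Both probes thus gave nearly the same difference.

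Dnah5, an outer arm heavy chain whose loss causes primary ciliary dyskinesia in humans, had 35.1 in dexamethasone and 20.7 in control, a difference of 0.69. Dnah7, an inner arm chain, had 12.5 in dexamethasone and 9.08 in control, a difference of 0.39. Dnah1, another inner arm chain, had 99.4 in dexamethasone and 76.7 in control, a difference of 0.30. These chains were higher on the dexamethasone array, while Dnah2 (-0.02), Dnah8 (-0.15) and Dnahc6 (-0.24) were at or below 0. Dnah2 was 0.06 under quantile normalization, so it has no settled sign. The dim values depend on how background is treated. With the normexp background model, Dnah5 was 0.11, Dnah1 0.19, Dnahc6 -0.098 and the Dnahc3l probes 0.05 and 0.16, and Dnah7 was -0.02 with no background correction.

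Probes of 1 heavy chain gene did not always give the same sign. Dnah17 had 165 in dexamethasone and 99.97 in control on the probe at rn4 chr10:108028847-108028906, a difference of 0.65. On the probe at chr10:108078553-108078612 it had 11.7 in dexamethasone and 16.5 in control, a difference of -0.58. The brighter of these probes was higher after dexamethasone and the one near background was lower, and with normexp they were at 0.41 and -0.13.

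Dnah10, an inner arm heavy chain, split further. Its probe at rn4 chr12:32925071-32925130 had 29166 in dexamethasone and 53427 in control, a difference of -0.95. It passed 2-fold with quantile normalization (-1.01), cyclic loess (-1.03) and in the deposited value table (-1.01). Its probe at chr12:32925249-32925308, with 118 bases between them, had 333 in dexamethasone and 219 in control, a difference of 0.53. The neighbouring probes thus differed in sign. The nearest probe of the adjoining gene Ccdc92, 1047 bases away, had 3963 in dexamethasone and 3718 in control, a difference of 0.02. The third Dnah10 probe, at chr12:33034188-33035511, was on neither array above background. The sequences of both measured probes are shown because they carry the split. Capitals mark 16 bases at the 3′ end of the first probe that also occur in a probe for Galp, a gene for a hypothalamic neuropeptide, which itself had 27.8 in dexamethasone and 38.2 in control.
Dnah10, chr12:32925071-32925130: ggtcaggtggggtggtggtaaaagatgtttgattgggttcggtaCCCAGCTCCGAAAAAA
Dnah10, chr12:32925249-32925308: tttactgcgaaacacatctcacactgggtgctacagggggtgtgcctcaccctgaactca
The transcript that the first probe detects was not tested. Without it, the motile families were above 0 for 19 of 24 probes, with a median of 0.30.

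The intermediate chains Dnai1 and Dnai2 anchor the outer arm and are, like Dnah5, ciliary dyskinesia genes in humans. Dnai1 had 269 in dexamethasone and 223 in control, a difference of 0.19. Dnai2 had 86.6 in dexamethasone and 79.7 in control, a difference of 0.04. Dynlrb2, a roadblock-type dynein light chain abundant in ciliated tissue, was measured by probes whose ends overlap. They had 2918 and 1625 in dexamethasone, against 2070 and 1198 in control, with differences of 0.42 and 0.36. The pair therefore gave nearly the same value at bright signal.

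All 4 tektins measured on both arrays were above 0, with a median of 0.23. Tekt4 had the highest tektin signal, 1119 in dexamethasone and 917 in control, a difference of 0.21. Tekt3 had 113 in dexamethasone and 66.5 in control, a difference of 0.68, the largest of these 4, and 0.38 with normexp. Tekt2 had 523 in dexamethasone and 420 in control, a difference of 0.24, and Tekt1 followed at 0.14. Tekt5, known mainly from sperm flagella, had 16.1 in dexamethasone and 6.25 in control. It was not well above background in control. Set against its own signal there, it was 2.44-fold higher. That ratio is not a lower limit, and the signals were close to the detection limit of both arrays.

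Of the radial spoke genes, Rsph1, Rsph9 and Rsph10b had similar positive differences. Rsph1, a spoke head protein, had 3674 in dexamethasone and 2844 in control, a difference of 0.29. Rsph10b had 3404 in dexamethasone and 2619 in control, a difference of 0.30. Rsph9, also of the spoke head, had 2228 in dexamethasone and 1786 in control, a difference of 0.24. The exception was Rsph6a, whose known site of expression is the testis, with 2555 in dexamethasone and 4212 in control, a difference of -0.80. RefSeq lists Dmwd among the older names of Rsph6a, and a separate gene now called Dmwd lies next to it, so which of these RNAs the probe detects is uncertain.

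Tmem212, a membrane protein gene known as an ependymal marker in rodent brain, had 2710 in dexamethasone and 1759 in control, a difference of 0.55. Foxj1, the transcription factor of the motile cilium programme, had 2410 in dexamethasone and 1907 in control, a difference of 0.26, which lies within the range of the spoke and tektin genes. The brighter motile probes, with a mean signal of 64 or more, were above 0 for 15 of 18, with a median of 0.27. The 7 dimmer ones were above 0 for 4, with a median of 0.39.

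**Figure D2:**
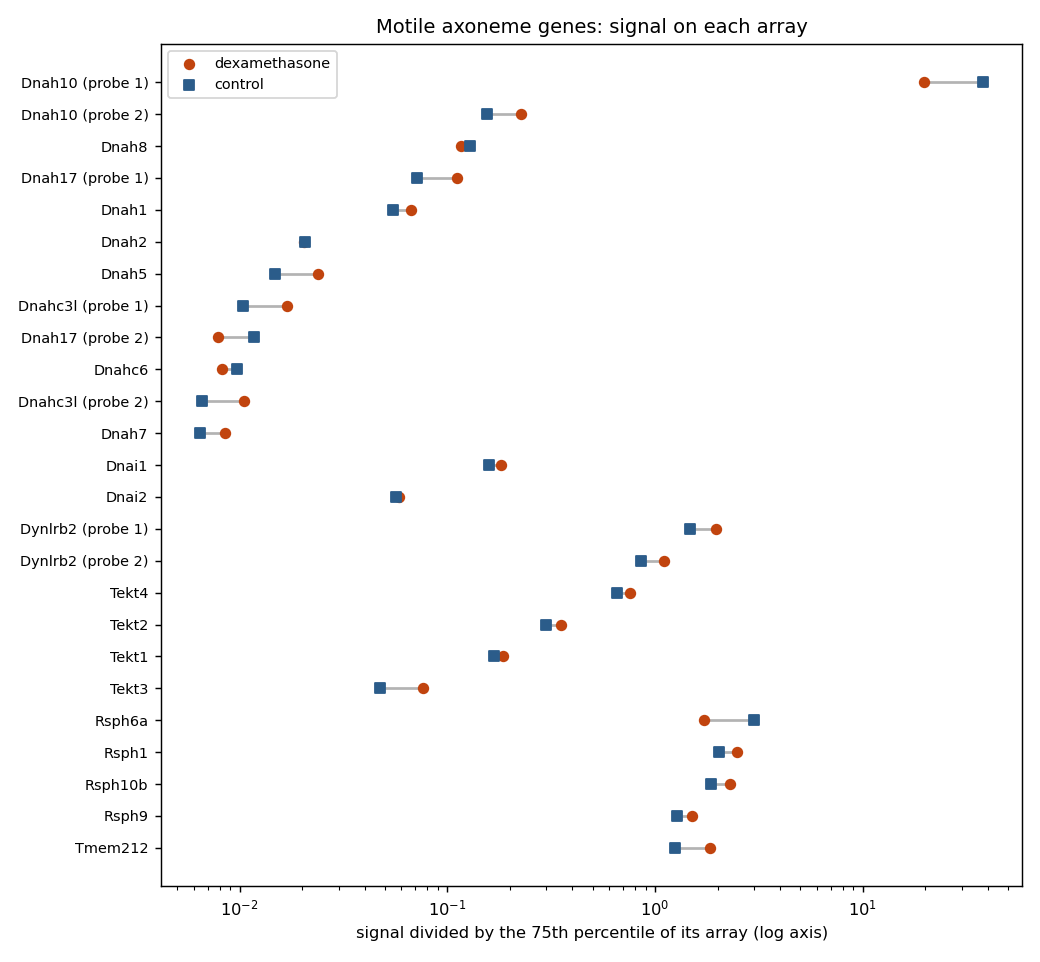
Signal of each measured probe of the motile families, Dynlrb2 and Tmem212 included, divided by its array's 75th percentile (log axis). Dexamethasone is shown as circles and control as squares. Circles lie to the right of squares for 19 of 25 probes. The exceptions include Rsph6a and the bright Dnah10 probe.

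Sperm-associated antigens share a name and not a structure. The family was measured by 11 probes, with 3 above 0 and 8 below and a median of -0.09. Spag11b, which belongs with the beta-defensins of the epididymis and is no axoneme part, had 32.2 in dexamethasone and 96.8 in control, a difference of -1.66. Spag11c, from the same gene cluster, had 42.8 in dexamethasone and 110 in control, a difference of -1.43. In this scaling no other cilium member measured on both arrays was past 2-fold. Both stayed below 0 but not past 2-fold with normexp, at -0.86 and -0.75. By RefSeq, the accession of the Spag11b probe now belongs to Spag11a. Their neighbouring probes on rn4 chromosome 16 are shown with that of Spag16, the member with the largest positive difference among those measured on both arrays. No letter is in capitals, since none of these probes shares 16 bases with a probe of another gene.
Spag11b, chr16:75474911-75474970: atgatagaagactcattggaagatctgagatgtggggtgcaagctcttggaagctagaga
Spag11c, chr16:75491074-75491133: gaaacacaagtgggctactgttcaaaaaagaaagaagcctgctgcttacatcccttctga
Spag16, chr9:69738009-69738068: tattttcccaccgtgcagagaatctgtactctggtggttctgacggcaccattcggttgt

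Among the Spag genes that do act in the axoneme, Spag16, a central pair protein, had 31.1 in dexamethasone and 17.4 in control, a difference of 0.77. With no background correction that value was 0.15. Spag6, which in the mouse is needed for the central pair, gave 0.20 on the brighter probe (1104 in dexamethasone and 911 in control) and -0.02 on the dimmer one (85.1 in dexamethasone and 82.0 in control), which was 0.01 under quantile normalization. Its paralog, listed as Spag6l, had 5.19 in dexamethasone and 11.3 in control. It was not well above background after dexamethasone. Set against the lowest detected signal of the dexamethasone array, it was 1.64-fold lower, which is not a lower limit. RefSeq now gives these paralogs the opposite names. Spag1, which takes part in the assembly of dynein arms, was at 0.18.

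The remaining Spag genes have roles outside the axoneme or less clear ones. Spag4, a nuclear envelope protein with a SUN domain, had 126 in dexamethasone and 215 in control, a difference of -0.85. Spag7 had the highest signal of the family, 10538 in dexamethasone and 11144 in control, a difference of -0.16. Its probe contains a run of GT repeats and shares 16 bases with 26 probes of other genes, so its signal is uncertain. Spag5 (-0.09), a mitotic spindle protein, Spag9 (-0.08), a scaffold of JNK signalling, and Spag8 (-0.18) lay near the middle of all probes.

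Intraflagellar transport carries cargo along the axoneme of motile and primary cilia alike. Its 14 probes for 12 genes were above 0 for 4 and below for 10, with a median of -0.10 and a range of -0.54 to 0.15. No probe reached 1.5-fold. Ift88, a core protein of the anterograde complex, had 339 in dexamethasone and 467 in control, a difference of -0.54. Ift52, another core protein, was the brightest of the family, with 10522 in dexamethasone and 12442 in control, a difference of -0.32. Its other probe gave -0.30. Ift122, of the retrograde complex, gave -0.28 and -0.13. Ift20, which also sits at the Golgi, was the highest at 0.15, with 878 in dexamethasone and 751 in control. The remaining genes, Ift27, Ift43, Ift46, Ift57, Ift74, Ift80, Ift81 and Ift172, lay between -0.18 and 0.05. The family was thus narrower in its spread than the dynein heavy chains and mostly below 0. Its probes were also brighter, with a median signal of 1038 in dexamethasone and 942 in control. The heavy chain medians were 32.7 and 24.9, and dim probes varied more between spots.

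The Bardet-Biedl genes were below 0 on 7 of 10 probes, with a median of -0.27. Bbs4, a BBSome subunit, had 3815 in dexamethasone and 5566 in control on the probe at rn4 chr8:63153534-63153593, a difference of -0.62. Its second probe had 1238 in dexamethasone and 1124 in control, a difference of 0.06, so the probes disagreed. Bbs1, also a subunit, had 190 in dexamethasone and 250.1 in control on its brighter probe, a difference of -0.48, and the dimmer probe gave -0.31, or -0.12 with normexp. Bbs2 had 822 in dexamethasone and 970 in control, a difference of -0.31, followed by Bbs7 at -0.23. Bbs10, which is a chaperonin-like assembly factor of the BBSome and not a subunit, was at -0.22.

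**Figure D3:**
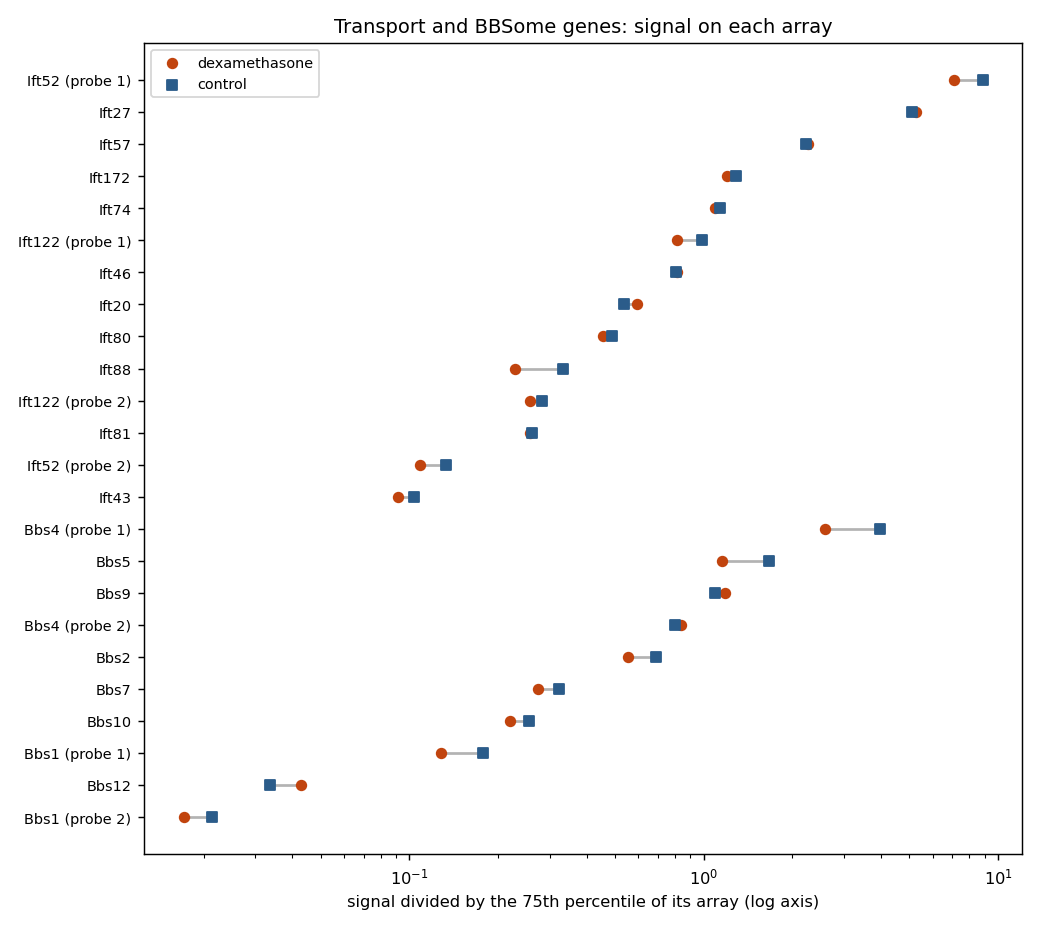
Signal of each intraflagellar transport and Bardet-Biedl probe divided by its array's 75th percentile (log axis), with dexamethasone as circles and control as squares. Circles lie to the left of squares for 17 of 24 probes, most clearly for Ift88, Bbs4 (probe 1) and Bbs5.

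Of the cilium probes, 4 were spotted 10 times on each array, which gives their technical error. Bbs5, a subunit that binds membrane lipids, had 1705 in dexamethasone and 2344 in control, with a difference of -0.53 ± 0.022 (SD over 10 spot pairs). All its pairs lay between -0.57 and -0.50. Bbs9, another subunit, had 1748 in dexamethasone and 1540 in control, with a difference of 0.11 ± 0.052. Bbs12, of the chaperonin-like group, had 63.5 in dexamethasone and 47.2 in control, with a difference of 0.35 ± 0.13, and 0.13 with normexp. Ift172, of the anterograde complex, had 1775 in dexamethasone and 1805 in control, with a difference of -0.10 ± 0.028 over the 9 spot pairs kept. Every spot pair of each probe had the sign of its mean, so in this scaling the sign did not depend on the spot. Over all probes with repeated spots the median SD was 0.041 (1314 probes), and it was 0.21 for the 109 with a signal under 64. This error covers the array surface only and not RNA preparation or animals.

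**Figure D4:**
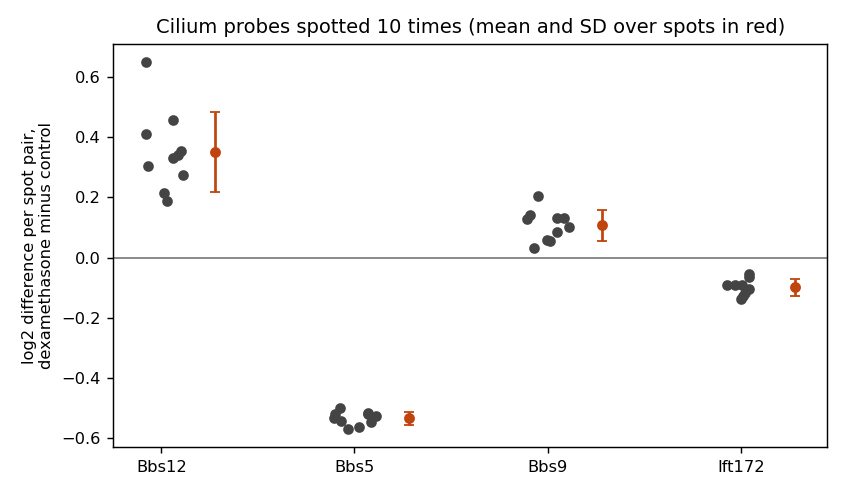
Log2 difference of each spot pair (dexamethasone minus control, vertical axis) for the 4 cilium probes spotted 10 times, with the mean and SD over spots in red. Bbs5 and Ift172 lie wholly below 0, and Bbs9 and Bbs12 wholly above.

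Promoters of cilium genes are known for the X-box, the site of RFX transcription factors. Promoter windows of 250 bases before to 50 after the gene start were in the RefSeq table (GRCr8) for 42 of the 53 genes by current name. The paired motif searched was GTTNCC, then 2 to 4 bases of any kind, then GNAAC, on both strands. It occurred in 5 of 42 cilium promoters (11.9%), beside 1.65% of 27457 genes. All 5 belong to the motile families (5 of 19), with 0 of 16 among transport and BBSome genes and 0 of 7 among Spag genes. The single element GTTGCC, which overlaps the paired motif in part, was in 17 of 42 (40.5%), beside 13.1% of all genes, and was found in 6 of 19 motile and 7 of 16 transport and BBSome promoters. The forkhead motif GTAAACA, again on both strands, was in 1 of 42, that of Tekt3, beside 4.13% of all genes. The motif spellings were settled after several had been looked at, and a match is a description and not a site in use.
The promoters with the paired motif are printed on the gene's strand with the match in capitals, since they are those of members described above with differences of 0.19 (Dnai1), 0.04 (Dnai2), 0.36 and 0.42 (Dynlrb2), 0.24 (Tekt2) and 0.21 (Tekt4).
Dnai1, GRCr8 chr5:61525829-61526128, plus strand: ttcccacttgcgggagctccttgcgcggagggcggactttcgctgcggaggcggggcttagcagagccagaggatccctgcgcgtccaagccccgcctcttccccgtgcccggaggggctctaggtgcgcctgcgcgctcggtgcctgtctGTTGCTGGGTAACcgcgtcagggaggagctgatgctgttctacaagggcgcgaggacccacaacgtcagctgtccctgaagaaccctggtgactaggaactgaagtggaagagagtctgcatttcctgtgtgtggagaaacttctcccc
Dnai2, GRCr8 chr10:100258772-100259071, plus strand: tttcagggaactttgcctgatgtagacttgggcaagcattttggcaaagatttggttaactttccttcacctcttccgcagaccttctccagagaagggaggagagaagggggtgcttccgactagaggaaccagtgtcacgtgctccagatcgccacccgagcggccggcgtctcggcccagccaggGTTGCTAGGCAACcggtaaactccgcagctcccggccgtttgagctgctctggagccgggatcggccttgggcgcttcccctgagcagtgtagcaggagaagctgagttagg
Dynlrb2, GRCr8 chr19:61428830-61429129, plus strand: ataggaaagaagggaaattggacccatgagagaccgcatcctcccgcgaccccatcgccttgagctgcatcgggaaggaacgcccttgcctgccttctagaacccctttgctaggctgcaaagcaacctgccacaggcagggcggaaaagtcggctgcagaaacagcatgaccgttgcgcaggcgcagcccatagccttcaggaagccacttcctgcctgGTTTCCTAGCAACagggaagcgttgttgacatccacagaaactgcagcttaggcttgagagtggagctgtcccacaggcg
Tekt2, GRCr8 chr5:143907675-143907974, minus strand: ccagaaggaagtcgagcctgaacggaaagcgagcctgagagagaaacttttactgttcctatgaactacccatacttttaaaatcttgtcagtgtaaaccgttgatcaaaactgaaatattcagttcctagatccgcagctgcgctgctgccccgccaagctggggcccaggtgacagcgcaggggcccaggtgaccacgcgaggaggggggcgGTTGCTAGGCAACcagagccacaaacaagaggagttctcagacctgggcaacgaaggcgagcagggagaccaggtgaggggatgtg
Tekt4, GRCr8 chr10:14992034-14992333, plus strand: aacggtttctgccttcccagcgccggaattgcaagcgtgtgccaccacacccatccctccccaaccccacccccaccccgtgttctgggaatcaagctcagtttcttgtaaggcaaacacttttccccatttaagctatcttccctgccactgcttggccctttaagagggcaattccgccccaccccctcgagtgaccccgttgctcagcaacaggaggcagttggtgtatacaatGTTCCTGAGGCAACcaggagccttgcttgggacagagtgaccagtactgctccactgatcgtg
The matches begin 99 (Dnai1), 62 (Dnai2), 30 (Dynlrb2), 36 (Tekt2) and 13 (Tekt4) bases before the gene start. The genes with a match were all above 0, though Dnai2 was -0.02 with no background correction, and most motile probes without one were above 0 too.

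The other genes of these pathways were read from lists. Of 81 further motile cilium genes measured, 53 were above 0 and 28 below, with a median of 0.14. Of these, 1 was past 2-fold upward and 2 were past it downward. Over all 20144 measured genes the median was 0.02, with 549 past 2-fold upward and 649 past it downward. Rfx3, an RFX factor, had 151 in dexamethasone and 64.2 in control, a difference of 1.15. Catsperd, listed on the array as Tmem146 and known from the sperm calcium channel, had 9.999 in dexamethasone and 24.97 in control, a difference of -1.40. Its dexamethasone signal was near the lowest detected signal of that array, 7.31, and list genes were not rerun under other background settings. Ccdc37, an axonemal protein, had 705 in dexamethasone and 1431 in control, a difference of -1.10. The list median thus lay above 0 as for the motile members, at a smaller size.

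Of 31 other transport and BBSome genes measured, 14 were above 0 and 17 below, with a median of -0.03. Ttc21b, of the retrograde complex, had 55.9 in dexamethasone and 108 in control, a difference of -1.03. The dynein light chains Dynlt1 and Dynll1, which also serve cytoplasmic dynein, were at 0.56 and 0.48. Of 52 genes of the transition zone and ciliary membrane, 20 were above 0 and 32 below, with a median of -0.12. There 1 was past 2-fold upward and 4 were past it downward, beside 549 and 649 of all 20144 measured genes.

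Single genes of that last list had larger differences than any transport member. Sstr3, a somatostatin receptor found in neuronal cilia, had 1890 in dexamethasone and 541 in control, a difference of 1.73. Anks6, a partner of the inversin compartment of the cilium, had 213 in dexamethasone and 630 in control, a difference of -1.64. Evc2, a Hedgehog pathway component at the base of the cilium, had 113 in dexamethasone and 325 in control, a difference of -1.60. Gli1, a Hedgehog target and transcription factor, and Invs, which encodes inversin, were the other 2 past 2-fold, at -1.21 and -1.10.

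Marker lists of cells and regions near the sampled tissue differed between the arrays as well. For comparison, 10516 of all 20144 measured genes were above 0. Of 19 ependymal markers outside the member families, all measured, 15 were above 0, with a median of 0.31 and a summed signal, each array divided by its 75th percentile, of 34.05 in dexamethasone and 26.6 in control. That list shares 11 genes with the further motile cilium genes. Tppp3, the brightest ependymal marker, had 24506 in dexamethasone and 19133 in control. Cd24, with 8487 in dexamethasone and 2174 in control, had a difference of 1.89, Hdc one of 1.66 and Mia one of -2.15. Most of the gap between the ependymal sums came from Cd24 and Tppp3. Of 22 choroid plexus markers, 20 were above 0, with a median of 0.38, led by Col8a1 (0.95), F5 (0.91) and Car12 (0.87). Their summed scaled signal was 309 in dexamethasone and 310.4 in control, of which Ttr alone gave 241 in dexamethasone and 253 in control. Of 14 measured tanycyte markers, 11 were above 0, with a median of 0.49 and summed scaled signals of 41.96 in dexamethasone and 17.2 in control. Crym was at 3.16, with 32442 in dexamethasone and 3450 in control, the highest dexamethasone signal of the tanycyte list. Most of the gap between the tanycyte sums came from Crym. Frzb was at 1.89, and the 3 below 0 were Scn7a (-1.38), Rax (-0.84) and Adm (-0.06). Lhx2 and Ppp1r1b are also in the list of cortex, hippocampus and striatum neurons, and Gpr50 and Fndc3c1 were not measured. Of 15 astrocyte markers, 9 were above 0, with a median of 0.16 and summed scaled signals of 429 in dexamethasone and 443 in control. Slc1a2 was at 0.75, Gfap at 0.73 and Agt at -0.54.

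The list medians farthest from 0 were those of region markers. Of 22 measured markers of cortex, hippocampus and striatum neurons, 17 were at least 2-fold higher, beside 549 of all 20144 measured genes. The list had a median of 2.31 and summed scaled signals of 87.0 in dexamethasone and 12.8 in control. Mas1 was at 6.43 and Fezf2 at 5.32, and Tbr1 was not measured. Of 15 thalamus markers, 14 were below 0, beside 9628 of all 20144 measured genes. The thalamus list had a median of -0.95 and summed scaled signals of 67.0 in dexamethasone and 121 in control. Pou4f1 was at -1.91, Gbx2 at -1.19 and Cacna1g at -1.08.

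The labelled tissue was checked by its own markers. Of 18 paraventricular nucleus markers, 16 were measured and Otp and Brs3 were not. Of the 16, 11 were above 0 and 5 below, with a median of 0.29. Their summed scaled signals were 26.7 in dexamethasone and 17.2 in control. Sst, the brightest of them on both arrays, had 21300 in dexamethasone and 7602 in control, a difference of 1.41. Most of the gap between the summed signals came from Sst. Sim1 had 12.0 in dexamethasone and 14.1 in control, near the lowest detected signals of those arrays, 7.31 and 5.86. Avp had 970 in dexamethasone and 3464 in control, a difference of -1.91. Oxt had 587 in dexamethasone and 1455 in control, a difference of -1.38, and Pdyn was at 1.84. These lists differed between the same 2 arrays as the motile and transport genes, and their part in the result was not tested.

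**Figure D5:**
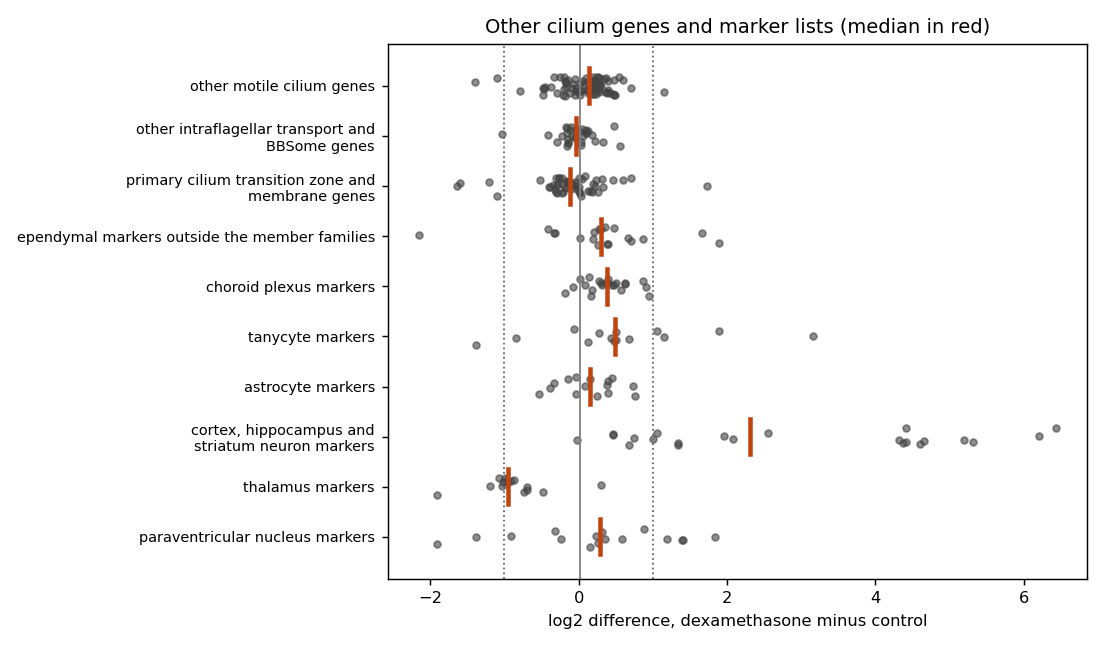
Log2 differences (dexamethasone minus control, horizontal axis) of genes in 3 lists of other cilium genes and 7 marker lists. Points are genes, red bars are list medians, the grey line is the median of all genes and dotted lines mark 2-fold. The cilium lists centre near 0, between -0.12 and 0.14, while the cortex, hippocampus and striatum list centres at 2.31.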

How the data were processed

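Total RNA from the paraventricular nucleus was amplified, labelled with Cy3 and hybridised to 1-colour Agilent rat arrays, per the labels' protocols, with 1 array for dexamethasone and 1 for control. The deposited scanner files hold processed intensity, background-subtracted by Feature Extraction 10.7.1.1 per the file headers (9.5.1.1 per the submitters' processing notes), and probe positions on rn4. The deposited value table, with a median intensity of 149.9 in both columns, was used as an alternative. Its direction follows from a correlation of 0.996 with the scanner differences, and its scaling and centring stay unknown.

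Outlier spots (249 in dexamethasone, 267 in control) were dropped, and no spot was saturated. Log2 intensities were averaged per probe, and each array's 75th percentile over 30367 non-control probes was subtracted. A probe counted as measured if well above background on both arrays (23321 probes). It passed for 78.2% of probes in dexamethasone and 79.5% in control. For probes detected on 1 array, a ratio set that array against the probe's own signal on the other array (Tekt5). Where greater, the other array's lowest detected signal was used instead (Spag6l). These ratios are not lower limits, since a probe can fail detection above an array's lowest detected signal. A listed gene took its brightest measured probe. Other settings used R 4.3.3 with limma 3.58.1, and the steps were tested on simulated data. Names were updated by accession through RefSeq (GRCr8) for 44 of 67 member probes. The number of arrays limits the precision.

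The members and lists were chosen with earlier results of these data known. The genes named are members past 2-fold, the brightest and the 2 most different of each family, bounds past 2-fold, genes whose probes disagree in sign, and the 3 most different of each list. Other members and other list genes, Gli1, Invs, Rax and Oxt among them, were named after their values were seen. A gene that this rule names in a marker list is not reported here.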

Additional observations from a re-analysis of the deposited data

How the results depend on the processing

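Each setting was changed alone. The 2-fold lower members numbered 2, and 0 with normexp, with no background correction and with only probes at or above the median signal. They numbered 3 with quantile normalization, with cyclic loess and in the deposited value table, where the bright Dnah10 probe joined them, and 3 with no filter on dim probes, where Spag6l did. The count of 2-fold higher members was 0, and 1 (Tekt5) with no filter on dim probes. A 1.5-fold limit gave 6 higher and 6 lower. The median of the motile families, 0.29, was 0.17 with normexp, 0.15 with no background correction, 0.25 with quantile normalization, 0.25 in the deposited value table, and 0.24 with no filter, with genes by their brightest probe and with membership by current symbol. Membership by current symbol, which takes in probes under older names, and both groups of families were chosen after seeing the data. The median of transport and BBSome genes, -0.15, was -0.082 with only probes at or above the median signal. Neither of these medians changed sign under the settings run. The median of all cilium probes, -0.02, ranged from -0.036 to 0.018 and so had no settled sign. Of 508 single-probe values, 490 kept their sign. Of the 18 that did not, 1 had a size of 0.3 or more, that of Dnah7. The 508 include settings that changed only which probes were kept, by detection or by median signal. A probe's value stayed the same there, so its sign could not change. No array could be left out, with 1 per group. No paired analysis was possible because each group has 1 array.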
